A study of Mus musculus with 10 samples.

Results

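The mitochondrial ribosomal protein genes were followed through an Rbfox2 knockdown in mouse embryonic stem (ES) cells. They were taken as all entries of the expression table whose symbol starts with Mrpl or Mrps followed by a digit, which gave 73 of 26857 entries. By symbol 44 belong to the large subunit (Mrpl) and 29 to the small subunit (Mrps). A further 2 entries joined such a gene with a neighbour (Mrpl20 with E230028L10Rik and Mrpl53 with A230058J24Rik) and were not counted.

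Mitochondria carry their own ribosome, which translates the few respiratory chain subunits encoded by mitochondrial DNA. Its RNA comes from mitochondrial DNA, but all of its proteins are encoded in the nucleus, made on cytosolic ribosomes and imported. Some are homologues of bacterial ribosomal proteins and others are found only in mitochondria. The small subunit decodes the mRNA, and the large subunit forms the peptide bond and the exit tunnel.

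The series examined Rbfox2, a splicing regulator that binds RNA, in V6.5 mouse ES cells grown on gelatin. For RNA-seq, lentiviral hairpins against luciferase (shLuc) or GFP (shGFP) served as controls, and shFox2-1 and shFox2-2 targeted Rbfox2. All 4 received puromycin at 1 µg/ml for 3 days and were then kept for 24 h without it. Each hairpin was used in 2 duplicate infections, and poly(A) RNA of 8 libraries was sequenced from both ends. Both libraries of a hairpin are merged in 1 deposited value. Each condition therefore had 2 values, and a p-value reflects how far hairpins differ, not how far separate cultures do.

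For iCLIP, which recovers RNA fragments crosslinked to a protein by ultraviolet light, cells carried a lentivirus with doxycycline-inducible human RBFOX2, either tagged with FLAG-HA or untagged. They were selected in hygromycin at 150 µg/ml for 6 days, induced with doxycycline at 1 µg/ml for 24 h and crosslinked at 150 mJ/cm2. Both libraries were amplified for 16 cycles and the untagged one for 7 more. The protein mapped was therefore an added human RBFOX2, not the mouse protein at its own level, and there was 1 library of each kind.

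Among the features that the selection by name did not use, letters of transcription factor motifs stood in many promoters of these genes. RefSeq promoters (build GRCm38.p6, 250 bases before to 50 after each start) were matched to 64 of the 73 genes. The letters searched on both strands were the NRF1 palindrome (the capitals of the first 3 windows), CCGGAAG (ETS factors, among them GABP), AAGATGGC (YY1), CCAAT (NF-Y), GGGCGGG (SP factors) and CACGTG (E-box). NRF1, GABP and YY1 are the factors best known for driving nuclear genes of mitochondria, and the windows printed here were picked among the matches upstream of the start. Capitals mark the letters searched, or their reverse complement, and each window reads 5′ to 3′ on the strand of the gene.
Mrpl32, NRF1, chr13:14613106-14613133, minus strand: ttgacccttGCGCATGCGCaagaggggc
Mrpl39, NRF1, chr16:84735351-84735378, minus strand: aggagaggcGCGCATGCGCccccgcgtg
Mrpl9, NRF1, chr3:94443299-94443326, plus strand: ggcgcagctGCGCATGCGCggggtcctt
Mrpl34, ETS, chr8:71464880-71464904, plus strand: ctacagctcCCGGAAGgccccgcgg
Mrpl3, ETS, chr9:105053240-105053264, plus strand: agaaacggaCCGGAAGtggcccggc
Mrpl51, ETS, chr6:125192101-125192125, plus strand: ggggctaaaCCGGAAGtatttgact
Mrps18a, ETS, chr17:46110969-46110993, plus strand: acccctgctCCGGAAGcggaagtgc
Mrpl36, YY1, chr13:73330970-73330995, plus strand: tgaccttacGCCATCTTtcttcctgg
Mrps11, YY1, chr7:78783015-78783040, plus strand: acgggcgccGCCATCTTtctgtcttc
Mrps12, YY1, chr7:28742004-28742029, minus strand: atggacgcaGCCATCTTggagtggaa

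The ETS letters were found in promoters of 23 of the 64 genes (35.9%), against 21.9% of 8215 expressed genes and 9.93% of all 27025 genes with a promoter in the table. The YY1 letters were found in 11 genes (17.2%), against 5.75% of expressed and 3.19% of all genes, and in 7 of the 11 they began after the start, as in Mrps18a and Mrps7. The NRF1 letters were found in 3 genes (4.69%), the 3 shown above and all of the large subunit, against 2.58% of expressed and 1.07% of all genes. Any of these 3 motifs occurred in 33 of the 64 genes (51.6%) and in 28.2% of expressed genes.

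Counted by gene, the other motifs did not stand above the expressed genes. CCAAT was found in 37.5% of the genes, against 43.7% of expressed and 41.1% of all genes. GGGCGGG was found in 42.2%, against 55.5% and 27.9%, and CACGTG in 6.25%, against 12.4% and 8.09%. A gene counts if any of its promoters matches, and the 64 genes had 70 promoters, against 10525 for the 8215 expressed genes. Counted by promoter, CCAAT stood at 38.6% against 37.9% of promoters of expressed genes, GGGCGGG at 42.9% against 48.9% and CACGTG at 8.57% against 10.4%. The ETS letters stood at 32.9% against 18.6%, YY1 at 15.7% against 4.72% and NRF1 at 4.29% against 2.24%. Small subunit genes held the ETS letters in 42.3% and the YY1 letters in 23.1% of cases, and large subunit genes in 31.6% and 13.2%. Of 131 matches in these promoters, 2 shared bases with a match of another motif. A site that lies in several promoters counts once for each, as with the CACGTG of Mrpl2 and the GGGCGGG shared by Mrps11 and Mrpl46. The 131 matches and the shares by promoter thus include repeats of the same bases. A match is a description of the letters in this window and not of a bound factor.

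Depth was unknown for both assays, since expression was deposited as FPKM (fragments by transcript length and by sequencing depth) without counts. Rbfox2, listed as Rbm9, stood at 24.7 FPKM in shLuc, 23.3 in shGFP, 8.56 in shFox2-1 and 7.21 in shFox2-2. This left 32.9% of the control level at the mean, although the estimate did not have full status in every hairpin. Of the 10 ES cell markers listed, 9 were matched. Pou5f1 stood at 268 to 336 FPKM and Klf4 at a mean of 17.5 FPKM, and a second Sox2 entry had a mean of 0.72 FPKM. Zfp42 stood at 110 FPKM in shLuc, 116 in shGFP, 189 in shFox2-1 and 114 in shFox2-2. Klf4, Esrrb, Dppa5 and both Sox2 entries were also highest in shFox2-1. Pou5f1, Lin28 and Utf1 were highest in shGFP, and Tdgf1 in shFox2-2. Fibroblast markers were near 0, with Col1a1 at 1.35 to 1.91 FPKM and Lum listed at 0 in all hairpins. The 8 trophoblast markers summed to 43.5 FPKM in shLuc, 47.9 in shGFP, 81.2 in shFox2-1 and 46.9 in shFox2-2, most of it Krt8 and Krt18. Of 5 neural markers, Nes (8.49, 9.69, 3.87 and 7.92 FPKM in that order) and Sox1 (3.38, 3.27, 1.48 and 2.22 FPKM) had both knockdown values below both controls. In Pax6, Mtap2 and Tubb3 the groups overlapped, and Tubb3 stood at 27.3, 32.1, 38.3 and 24.7 FPKM in the same order. Of the trophoblast markers, Krt8, Gata3 and Cdx2 had both knockdown values above both controls and Eomes both below. Primitive endoderm markers reached at most 1.54 FPKM at the mean, with Foxa2 and Sox17 above both controls and Gata4 below. The part of these cell types in the results below was not tested. The median expressed gene lay at 3.11, 3.18, 3.22 and 3.03 on the log2(FPKM + 1) scale in shLuc, shGFP, shFox2-1 and shFox2-2. In such bulk samples, fewer cells of a type and less RNA per cell cannot be told apart.

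All 73 genes were expressed, here meaning a mean of at least 1 FPKM over the 4 hairpins, which 12632 entries reached. Their mean levels ran from 2.78 to 81.5 FPKM with a median of 18.4, against a median of 7.81 over all expressed genes. The large subunit had a median of 19.1 FPKM and the small subunit 17.8 FPKM. The deposited interval of a value reached, at the median over these genes, 16.5% of the value to either side in shLuc, 18.0% in shGFP, 17.0% in shFox2-1 and 21.0% in shFox2-2. Summed over the 73 genes the level was 1448 FPKM in shLuc, 1618 in shGFP, 1577 in shFox2-1 and 1457 in shFox2-2, so that each knockdown sum lay between the control sums.

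In the large subunit the highest level was that of Mrpl52, at 74.3 FPKM in shLuc, 87.3 in shGFP, 82.5 in shFox2-1 and 81.7 in shFox2-2. Each of these values exceeded all values of the other 72 genes. Mrpl24, at a mean of 50.9 FPKM, and Mrpl33, at 48.7 FPKM, followed, and their ranges over hairpins overlapped. The lowest were Mrpl41 at 3.03 FPKM, Mrpl21 at 3.53 FPKM and Mrpl23 at 5.40 FPKM.

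In the small subunit Mrps18b was highest, at 50.3 FPKM in shLuc, 53.4 in shGFP, 56.7 in shFox2-1 and 58.3 in shFox2-2. It is 1 of 3 homologues of the same bacterial protein, and the other 2 stood at a mean of 30.0 FPKM (Mrps18a) and 4.04 FPKM (Mrps18c). The ranges of these 3 paralogues over the hairpins did not overlap. Mrps17 at 35.5 FPKM and Mrps24 at 30.6 FPKM followed Mrps18b, and Mrps25 at 2.78 FPKM and Mrps36 at 5.98 FPKM were with Mrps18c the lowest. Mrps36 keeps its ribosomal name here, although its protein is now known as a subunit of the oxoglutarate dehydrogenase complex. Mrps18a and Mrps30 were counted as small subunit by name, although structures of the mitochondrial ribosome place both proteins in the large subunit.

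**Figure D1:**
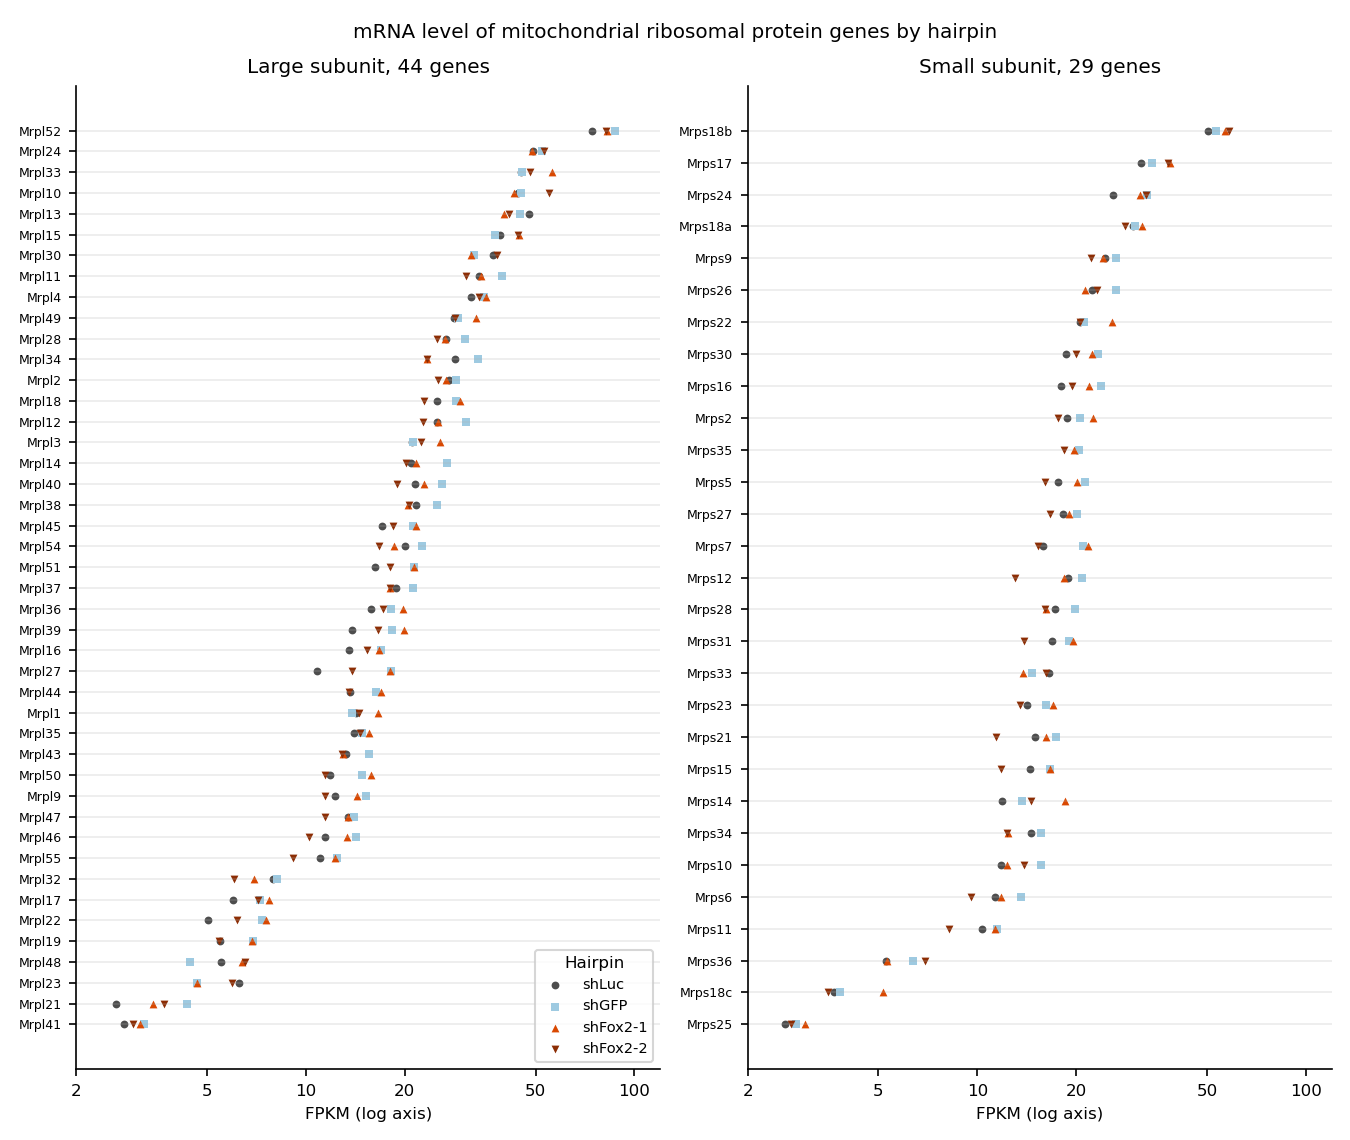
Deposited FPKM (horizontal log axis) of each of the 44 large subunit and 29 small subunit genes, 1 point per hairpin, ordered by mean level. Levels span from 2.78 FPKM (Mrps25) to 81.5 FPKM (Mrpl52) at the mean, and for most genes the control and knockdown points are interleaved.

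The estimate was of lower quality for some genes. A low-data status in at least 1 hairpin was given to 13 of the 73 (17.8%, against 18.1% of expressed genes), and 6 had it in every hairpin. Of the genes described below, Mrpl3 had it in both controls only, Mrpl13 in all but shLuc and Mrps21 in all but shFox2-1. The interval of Mrpl27 reached down to 0 in all hairpins, and that of Mrpl48 in all but shFox2-2. The loci of 10 genes overlapped another entry, 7 of them an expressed one, such as Mrpl48 with Rab6, Mrpl27 with Eme1 and Lrrc59, and Mrps18c with Ccdc98. Pseudogenes named after Mrpl23, Mrpl27, Mrpl48 and Mrps36 are listed by RefSeq, so the values of these genes and of the overlapping ones are uncertain.

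Knockdown was then compared with control over the 4 hairpins. None of the 73 genes was called by limma at a Benjamini-Hochberg adjusted p under 0.05, and none of the 20281 genes tested was (0%), Rbfox2 included (adjusted p = 0.913). The lowest adjusted p of a mitochondrial ribosomal protein gene was 0.978. At an unadjusted p under 0.05 limma gave 1 of the 73, Mrpl34, and 4.48% of all genes tested. No gene of the 73 had the deposited intervals of both knockdown hairpins on the same side of both control intervals, which was the case for 0.293% of expressed genes.

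Both knockdown values lay above both control values for 8 genes, against 14.3% of expressed genes, and below both for 14 genes, against 17.8%. Together these were 22 of 73 genes (30.1%), a share near the 32% of all expressed genes, and in the remaining 51 the groups overlapped. With the hairpins centred on the median expressed gene the split was 16 higher and 17 lower, which is 45.2% of the 73, against 35.7% of expressed genes. The 8 were Mrps14, Mrpl48, Mrps17, Mrpl15, Mrpl33, Mrpl3, Mrps18b and Mrpl1. The 14 were Mrpl34, Mrps12, Mrpl32, Mrps34, Mrpl54, Mrps28, Mrpl13, Mrpl38, Mrpl37, Mrpl43, Mrpl28, Mrps9, Mrpl2 and Mrps35.

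The differences were small. On the log2(FPKM + 1) scale, which understates changes of genes with low FPKM, 35 genes stood above 0 in knockdown minus control, against 47.6% of expressed genes, and 38 below. Their median was -0.0044, against -0.0024 over all genes tested. No gene differed by more than 0.5, which 347 of the 20281 genes tested did. Regardless of sign, the median size of a difference was 0.125 over the 73. It was 0.098 over all genes tested and 0.111 over expressed genes, so the 73 did not differ less than other genes. The signed median of the 73 took both signs as single hairpins were left out, from -0.13 without shLuc to 0.09 without shGFP.

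By subunit, 24 of the 44 large subunit genes stood above 0 and 20 below, with a median of 0.01. In the small subunit 11 of 29 stood above 0 and 18 below, with a median of -0.05. The medians of the subunits thus differed by 0.06, and without shFox2-2 the difference was -0.02.

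Among homologues of bacterial proteins in the large subunit, the lowest knockdown against control was Mrpl34, a small protein of that subunit, at 28.5 FPKM in shLuc, 33.4 in shGFP, 23.4 in shFox2-1 and 23.4 in shFox2-2. The knockdown hairpins gave almost equal values, lower than either control. The difference was -0.38 ± 0.13 (limma standard error, unadjusted p = 0.0265, adjusted p = 0.978), and its interval in each knockdown hairpin overlapped that of shLuc. Mrpl32, whose maturation needs a protease of the inner mitochondrial membrane, stood at 7.94, 8.18, 6.96 and 6.05 FPKM in shLuc, shGFP, shFox2-1 and shFox2-2, a difference of -0.27 ± 0.15. Mrpl13 stood at 47.7, 44.9, 40.2 and 41.4 FPKM in the same order, a difference of -0.18 ± 0.11. Its groups did not overlap, although its intervals did.

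Mrpl12, the stalk protein that also binds the mitochondrial RNA polymerase, stood at 25.1 FPKM in shLuc, 30.7 in shGFP, 25.3 in shFox2-1 and 22.8 in shFox2-2. Its groups overlapped, since shLuc lay just below shFox2-1, and the difference was -0.20 ± 0.14.

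On the higher side, Mrpl15 stood at 38.9 FPKM in shLuc, 37.7 in shGFP, 44.6 in shFox2-1 and 44.4 in shFox2-2, so its knockdown values were close to each other and above both controls (0.21 ± 0.10). Mrpl33 stood at 45.2, 45.4, 56.1 and 48.1 FPKM in shLuc, shGFP, shFox2-1 and shFox2-2 (0.19 ± 0.12). Mrpl3, which lies near the site of peptide bond formation, stood at 21.1, 21.2, 25.7 and 22.4 FPKM in that order (0.17 ± 0.13). For Mrpl33 and Mrpl3 the shFox2-2 value lay nearer to the controls than to shFox2-1.

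For other bacterial homologues of the large subunit the groups overlapped. Mrpl17 stood at 6.00, 7.24, 7.73 and 7.17 FPKM in shLuc, shGFP, shFox2-1 and shFox2-2, and shLuc alone stood apart (0.15 ± 0.16). Mrpl27, with the wide interval noted above, stood at 10.8, 18.2, 18.1 and 13.8 FPKM (0.16 ± 0.27). Its direction turned to -0.19 without shLuc and to -0.03 without shFox2-1.

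Among large subunit proteins found only in mitochondria, Mrpl54 stood at 20.0 FPKM in shLuc, 22.6 in shGFP, 18.5 in shFox2-1 and 16.7 in shFox2-2, both knockdown values below the controls (-0.26 ± 0.13). Mrpl48 stood at 5.54, 4.43, 6.39 and 6.54 FPKM in the same order, both above the controls (0.32 ± 0.16). This gene carries the low-data status, and its intervals spanned more than the whole difference. Mrpl39 stood at 13.8, 18.2, 19.9 and 16.6 FPKM, with overlapping groups (0.18 ± 0.18, and -0.0046 without shLuc).

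Among small subunit homologues of bacterial proteins, Mrps12, a protein of the decoding centre, stood at 18.9 FPKM in shLuc, 20.8 in shGFP, 18.4 in shFox2-1 and 13.0 in shFox2-2. Its shFox2-1 value was close to shLuc, so the difference of -0.34 ± 0.19 came mostly from shFox2-2, and it was -0.10 without that hairpin. Mrps21 stood at 15.0, 17.4, 16.1 and 11.4 FPKM (-0.23 ± 0.19), and Mrps6 at 11.3, 13.6, 11.8 and 9.56 FPKM (-0.20 ± 0.17), in both cases with shFox2-1 between the controls.

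Mrps14 had the largest positive difference of the 73 on this scale with all 4 hairpins. Mrpl48 was higher without shLuc, without shFox2-1 and with a pseudocount of 0.1. Without shGFP, Mrpl27 (0.51) was higher than Mrps14 (0.43). Mrps14 stood at 11.9 FPKM in shLuc, 13.7 in shGFP, 18.5 in shFox2-1 and 14.6 in shFox2-2 (0.34 ± 0.16, limma unadjusted p = 0.0873). The deposited interval in shFox2-1, 15.4 to 21.6 FPKM, lay above that in shLuc, 9.90 to 13.9 FPKM, but overlapped that in shGFP. Mrps17 stood at 31.5, 34.1, 38.5 and 38.0 FPKM in shLuc, shGFP, shFox2-1 and shFox2-2, with knockdown values close together above both controls (0.21 ± 0.11). Mrps18c stood at 3.68, 3.83, 5.15 and 3.52 FPKM, so shFox2-1 alone was high (0.15 ± 0.20, and -0.07 without it).

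Mrps34, a small subunit protein found only in mitochondria, stood at 14.5 FPKM in shLuc, 15.6 in shGFP, 12.4 in shFox2-1 and 12.3 in shFox2-2 (-0.27 ± 0.12). Like Mrpl34, its knockdown values were almost equal and below both controls. Mrps28, another small subunit protein, stood at 17.2, 19.9, 16.1 and 16.1 FPKM in the same order (-0.19 ± 0.13), again with equal knockdown values. In Mrpl34, Mrps34 and Mrps28 the knockdown intervals overlapped the interval of shLuc.

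**Figure D2:**
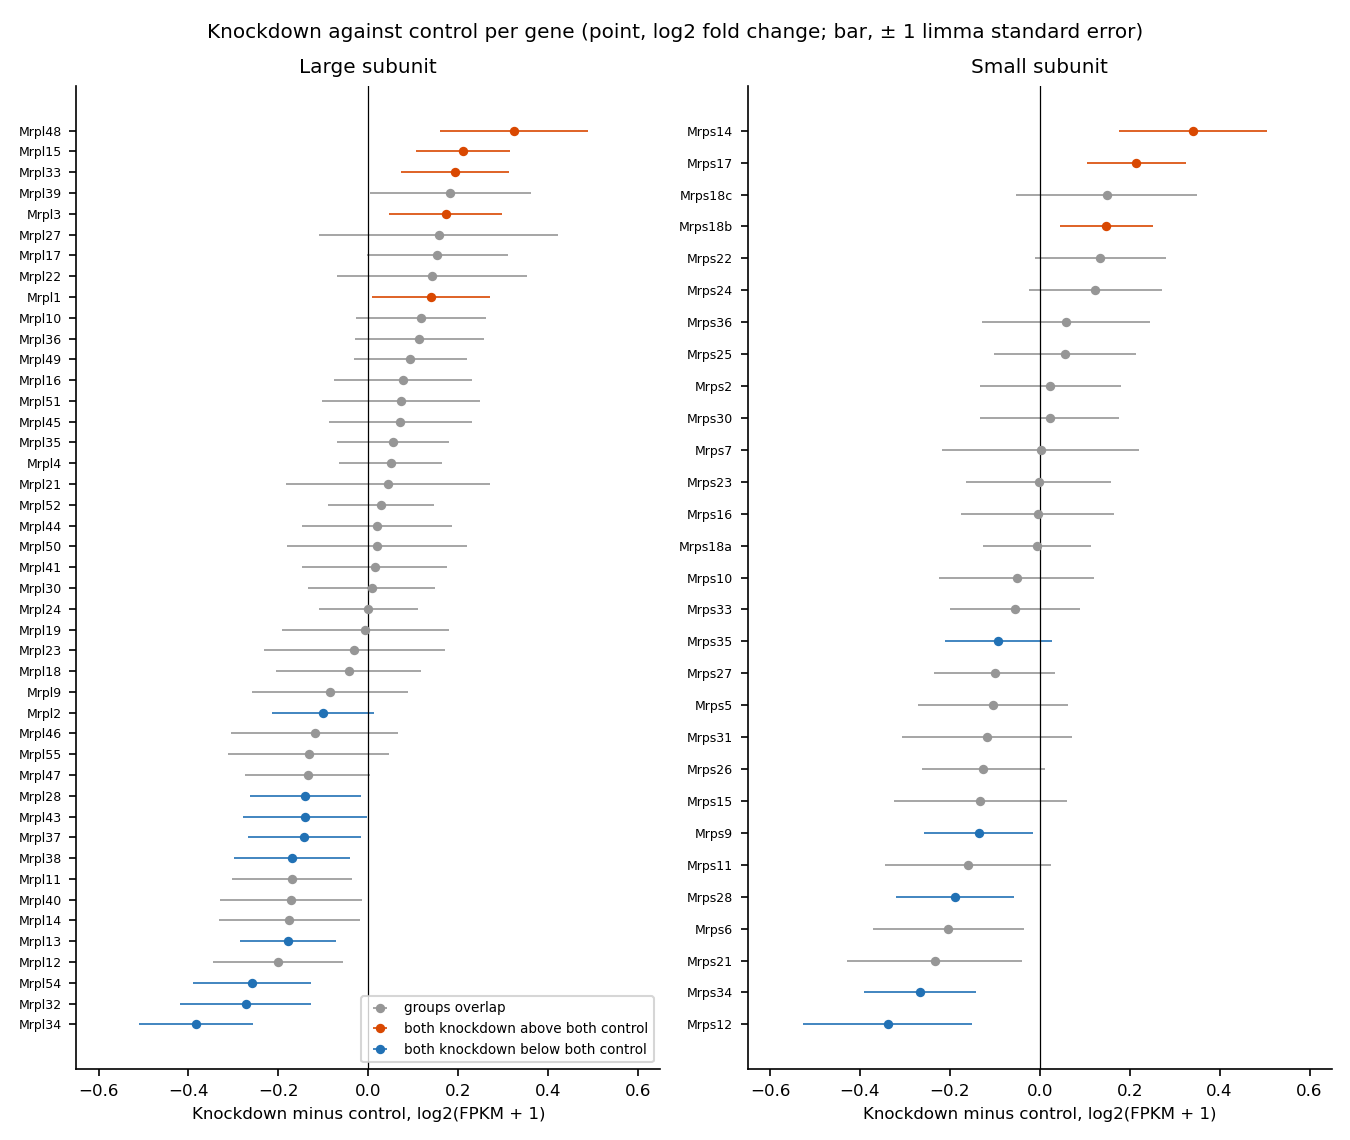
Knockdown minus control on the log2(FPKM + 1) scale for each gene (point) with 1 limma standard error to either side (bar), large subunit left and small subunit right. Orange marks the 8 genes with both knockdown values above both controls and blue the 14 with both below, and all points lie between -0.38 and 0.34.

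Hairpins of the same condition also differed from each other. Between the 2 control hairpins, 66 of the 73 genes were higher in shGFP than in shLuc, against 67.6% of expressed genes, with a median difference of 0.18, against 0.07 over expressed genes. This included 38 of 44 large subunit and 28 of 29 small subunit genes. No gene had intervals that failed to overlap between the controls, against 0.997% of expressed genes with shGFP higher and 0.19% with shGFP lower. As members of a list share their libraries, these counts describe this pair of values.

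Between the Rbfox2 hairpins, 57 of the 73 genes were higher in shFox2-1 than in shFox2-2, against 69.6% of expressed genes, with a median of 0.16, against 0.15 over expressed genes. The intervals were apart for 1 gene, Mrps7, against 13% of expressed genes with shFox2-1 higher and 1.97% with it lower. Mrps7, a homologue of a bacterial protein of the small subunit head, stood at 15.8 FPKM in shLuc, 21.0 in shGFP, 21.7 in shFox2-1 and 15.3 in shFox2-2. Its values fell into a high and a low pair, each with 1 control and 1 knockdown hairpin.

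Set against each control in turn, which the comparisons share, shFox2-1 had 53 genes above shLuc (66.5% of expressed genes) and 27 above shGFP (55.6%). The medians were 0.15 against shLuc and -0.04 against shGFP, with 0.10 and 0.03 over expressed genes. Intervals were apart for Mrps14, Mrps7 and Mrpl39 against shLuc, all higher (10.6% of expressed genes, and 2.98% lower), and for none against shGFP (6.71% higher and 3.57% lower).

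The second hairpin, shFox2-2, had 32 genes above shLuc (38.9% of expressed genes) and 14 above shGFP (30.3%). The medians were -0.04 and -0.21, with -0.06 and -0.13 over expressed genes. Intervals were apart for none against shLuc (1.28% of expressed genes higher and 3% lower) and for Mrps12, lower, against shGFP (5.64%, and 0.57% higher).

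Over the mean of the controls, the median of the 73 genes was 0.06 in shFox2-1 and -0.09 in shFox2-2, and the median of expressed genes was 0.07 and -0.09. By subunit it was 0.06 and -0.04 for the large and 0.08 and -0.14 for the small subunit. The highest of the 4 values was that of shGFP in 39 genes (53.4%, against 28.4% of expressed genes) and of shFox2-1 in 25 (34.2%, against 45.6%). The lowest was that of shFox2-2 in 35 (47.9%, against 45.4%) and of shLuc in 25 (34.2%, against 23.7%). In 10 genes shFox2-1 stood above both controls and shFox2-2 below both: Mrpl18, Mrpl44, Mrpl50, Mrps2, Mrps7, Mrps18a, Mrps18c, Mrps22, Mrps23 and Mrps31. This order held for 25.6% of expressed genes. The reverse was seen in Mrpl10, Mrpl24 and Mrpl30.

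**Figure D3:**
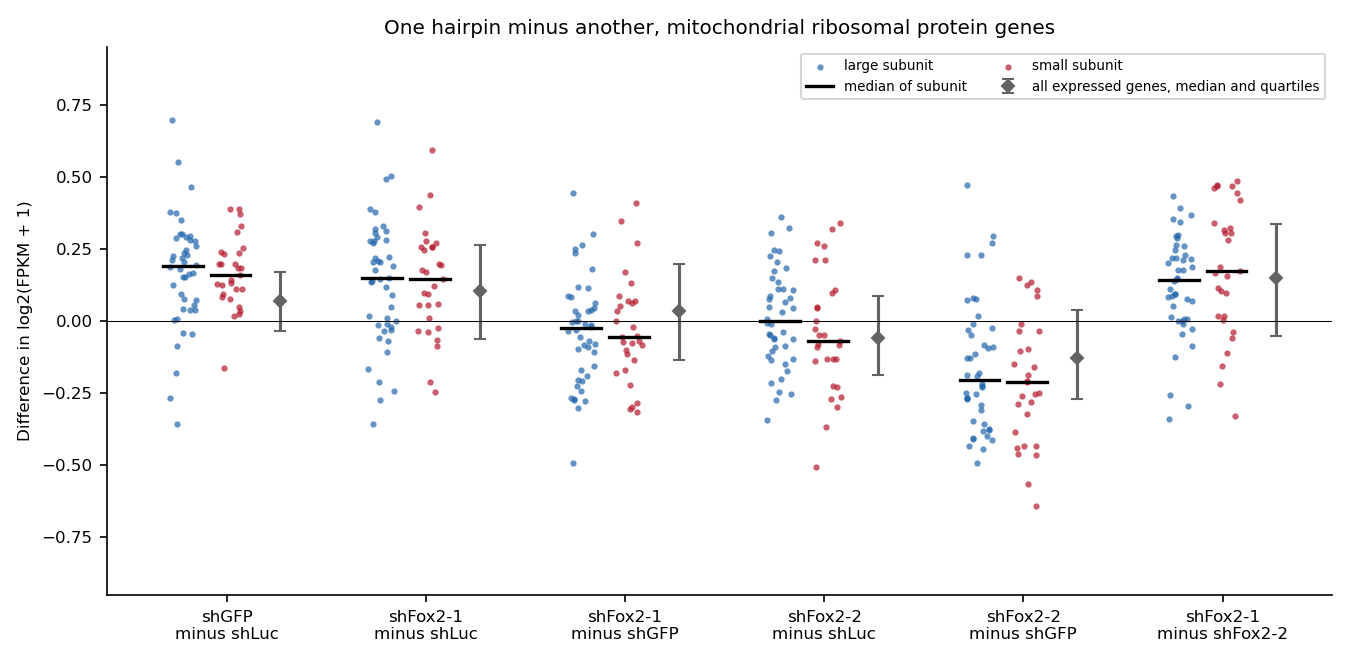
Difference in log2(FPKM + 1) between single hairpins for each large subunit (blue) and small subunit (red) gene, with the median of each subunit as a black bar and the median and quartiles of all expressed genes in grey. The 2 control hairpins differ by a median of 0.18 over the 73 genes, and the Rbfox2 hairpins by 0.16.

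Genes that work with the mitochondrial ribosome were set beside these values. The 7 ribosome proteins that bear other names had a median difference of -0.02. Both knockdown values lay above both controls for 2 (Mrp63 and Dap3), against 14.3% of expressed genes, and below for 1 (Chchd1), against 17.8%. Dap3, a GTP-binding protein of the small subunit, stood at 42.3 FPKM in shLuc, 42.8 in shGFP, 45.5 in shFox2-1 and 49.1 in shFox2-2. Ptcd3, an RNA-binding protein of the small subunit, stood at 58.4, 66.5, 72.6 and 60.7 FPKM in the same order, with overlapping groups. The joined entry with Mrpl20 differed by 0.12 and that with Mrpl53 by -0.15.

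Of 24 assembly factors matched, 12 stood above 0 and 12 below, with a median of -0.01. Dhx30, an RNA helicase needed for assembly of the ribosome, stood at 35.8 FPKM in shLuc, 37.2 in shGFP, 37.3 in shFox2-1 and 43.1 in shFox2-2, and Mterfd1 at 13.4, 16.0, 20.0 and 14.4 FPKM. Of 18 translation factors, 4 stood above 0 and 14 below (77.8%, against 52.4% of expressed genes, median -0.03). In 5 (27.8%, against 17.8%) both knockdown values lay below both controls, among them Tufm, the mitochondrial elongation factor. The 2 of highest level in that list were the entry 1810035L17Rik at 30.4 FPKM and Gfm2, which recycles mitochondrial ribosomes, at 26.9 FPKM.

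The 16 genes of mitochondrial RNA and DNA maintenance had a median of 0.03, with Pnpt1 (37.1 FPKM) and Hsd17b10 (21.5 FPKM) the highest. Of 9 nuclear regulators tested, 5 stood above 0 and 4 below (median 0.02), with Mycn (55.0 FPKM) and Pprc1 (28.5 FPKM) the highest, and Ppargc1a was listed at 0 in every hairpin. No gene of these lists was called by limma or had intervals apart between the conditions.

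Beside these lists stood 2 larger families taken by name. Names of the nuclear-encoded respiratory chain gave 80 expressed genes, some of them not chain subunits, such as Ndufaf1 and Cox4nb. Of these, 8 had both knockdown values above and 16 below both controls (30% together, against 32% of expressed genes). Of 78 expressed cytosolic ribosomal protein genes, 8 lay above and 40 below (61.5%). The medians of the 2 families were -0.03 and -0.13, against -0.0044 for the mitochondrial ribosomal proteins.

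iCLIP clusters lay in the loci of 31 of the 73 genes (42.5%, against 54.7% of expressed genes). They numbered 110 of the 35639 clusters, which had been kept by the authors for enrichment over the untagged library. Of these, 82 carried the gene ID of the mitochondrial ribosomal protein gene and 28 another ID. Examples were Rab6a in the Mrpl48 locus (7), Gcfc2 in that of Mrpl19 (7) and Slc5a3 in that of Mrps6 (4). The cluster in the Mrpl33 locus carried an ID that matched no symbol. It was counted among the 28, so the counts by gene ID leave Mrpl33 out, although the ID may be its own. A further 2 clusters of Mrps5 lay beyond the end of its locus in the table. By gene ID, 84 clusters thus belonged to 27 genes (37.0%, 95% Clopper-Pearson interval 26.0 to 49.1%), against 49.8% of expressed genes. Intervals on shares cover counting error only.

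These genes are short, with a median locus of 8487 bases against 19737 over expressed genes, and long genes held clusters more often. Under 5000 bases, 4 of 22 had a cluster (18.2%), and 11.2% of other expressed genes did. From 5000 to 10000 bases it was 6 of 25 (24.0%) against 34.0%, and from 10000 to 20000 bases 8 of 13 (61.5%) against 48.6%. At 20000 bases or more it was 9 of 13 (69.2%) against 69.6%. With the shares of other expressed genes of their own class of level and length, 43.0% of the 73 would hold a cluster. The observed share was 37.0%, and the part of level and length in its distance from the 49.8% of all expressed genes was not tested.

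Clusters were found for 15 of 44 large subunit genes (34.1%, interval 20.5 to 49.9%) and 12 of 29 small subunit genes (41.4%, interval 23.5 to 61.1%), which overlap. Where RefSeq gave the strand, all 58 clusters with the gene's own ID lay on its strand. Of 21 clusters with other IDs 8 did, that of Mrpl33 among them. How clusters were given their gene ID was not stated, and assignment by strand would fix the first count in advance. The median coverage of the 84 clusters was 369, against 374 over all clusters, and 35 (41.7%) had no coverage in the untagged library, against 44.9% of all. Of 56 clusters with a position along the gene, 14 fell at 0 to 25% of the locus from its start, 13 at 25 to 50%, 20 at 50 to 75% and 9 at 75 to 100%.

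The strongest cluster lay in Mrps18a (mm9 chr17:46257401-46259056, plus strand, 1656 bases), with a coverage of 94259 that ranked 6 of 35639 and a 5.38-fold enrichment over the untagged library. Mrps18a is named here after its values were seen, since the naming rule went by the number of clusters. Its mRNA stood at 29.7 FPKM in shLuc, 30.2 in shGFP, 31.8 in shFox2-1 and 28.1 in shFox2-2, so the controls lay between the knockdown values and the difference was -0.01 ± 0.12. Its promoter window with the ETS letters is printed above.

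Next came a cluster of Mrps9 (chr1:42940146-42941007, plus strand) with a coverage of 22515, ranked 270, and 7.19-fold enrichment. Mrps9 stood at 24.5 FPKM in shLuc, 26.5 in shGFP, 24.0 in shFox2-1 and 22.1 in shFox2-2, both knockdown values below the controls (-0.14 ± 0.12). A cluster of Mrpl37 (chr4:106736339-106736941, minus strand) had a coverage of 12706 and 16.2-fold enrichment, and the gene stood at 18.8, 21.2, 18.0 and 18.0 FPKM (-0.14 ± 0.13), again below both controls.

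A cluster of Mrpl1, a homologue of the protein of the bacterial ribosome's movable stalk near the exit site, had a coverage of 10885 (chr5:96687853-96688423, plus strand) and 12.2-fold enrichment. Mrpl1 stood at 14.2 FPKM in shLuc, 13.8 in shGFP, 16.6 in shFox2-1 and 14.6 in shFox2-2, both above the controls (0.14 ± 0.13). Genes with strong clusters were thus found on either side of 0.

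By number, Mrps28 led with 12 clusters in the longest locus of the 73 (121670 bases). Mrpl13 and Mrps27, an RNA-binding protein of the small subunit, had 8 each, and Mrps9 and Mrpl1 had 6 each. Mrps24 had 4 in a locus of 3718 bases, the strongest with a coverage of 2843, and Mrps6 had 4 of its own ID. Mrpl37, Mrps10, Mrpl24, Mrps35 and Mrpl10 had 3 each. Mrpl27, Mrpl48, Mrps18c and Mrps25 had clusters of other gene IDs only, and the cluster in the Mrpl33 locus had the ID that matched no symbol.

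Clusters and knockdown were then set side by side. Of the 27 genes with a cluster of their own, 11 stood above 0 in knockdown minus control and 16 below (median -0.05), and of the 46 without one 24 stood above and 22 below (median 0.005). Over expressed genes the medians were 0.005 with a cluster and -0.02 without, the opposite order. Both knockdown values lay outside the controls in 11 of the 27 and in 11 of the 46, against 31.8% of expressed genes with and 32.3% without a cluster. The genes with a cluster had a median level of 19.6 FPKM and a median locus of 12977 bases, and those without one 15.3 FPKM and 7071 bases, so level and length moved with this split and their part in it was not tested. Mrpl33, whose cluster had the ID that matched no symbol, was counted among the 46, with both knockdown values above both controls. No gene of either group was called by limma.

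**Figure D4:**
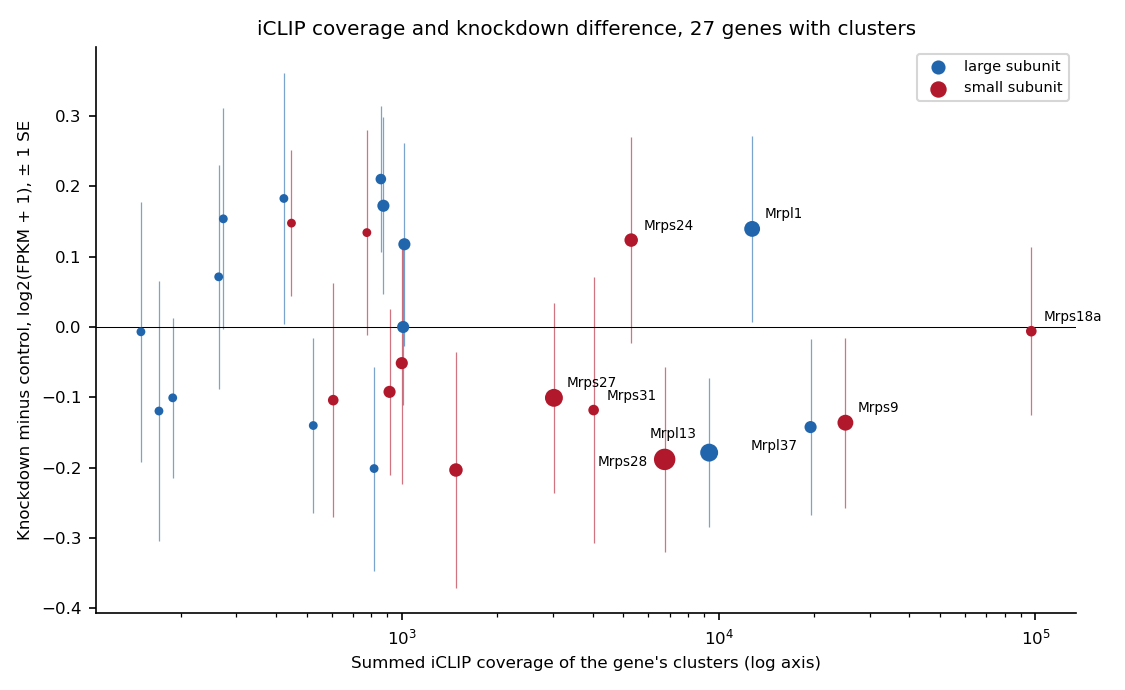
Summed iCLIP coverage of the clusters with a gene's own ID (horizontal log axis) against knockdown minus control on the log2(FPKM + 1) scale with 1 limma standard error to either side, for the 27 genes with such clusters (blue large, red small subunit, point area growing with the number of clusters). Mrps18a, with the highest coverage, lies at -0.01, and the genes spread over both sides of 0.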

How the data were processed

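Per the file headers, the authors deposited expression as FPKM with a lower and an upper bound and a status word, 1 set for each gene in each hairpin, arranged as Cuffdiff writes it. Processing notes of the submitters name TopHat2 2.0, Cufflinks 2.1.1 and build mm9. Not given in the sources used here were the annotation, how hairpins were scaled to each other, and the tools behind the iCLIP clusters. Each deposited cluster carries a coverage, a q-value and a fold against the untagged library, per the header of that file, and these values served for description and ranking only. Locus and cluster starts were taken as counted from 0 and are printed from 1.

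Entries with a failed status (105) or at 0 in every hairpin (6477) were left out of the 26857. The 20281 left were tested with limma 3.58.1 (R 4.3.3, mean-variance trend, two-sided) on log2(FPKM + 1), 2 knockdown against 2 control hairpins, with Benjamini-Hochberg adjustment over all genes tested. An exact permutation of 4 hairpins cannot go below p = 0.333. The fit was tested on simulated data. A cluster belonged to a locus it overlapped by at least 1 base, and gene IDs were matched through RefSeq tables. The other steps used Python 3.11.15 and pandas 2.3.3.

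The genes and accompanying lists were chosen with earlier results of these data known. Named were the 10 largest differences in each direction, the 3 highest and 3 lowest levels of each subunit, up to 12 genes with the most clusters, and the 2 highest genes of each list. The 5 most alike genes over the 4 hairpins were those of at least 10 FPKM with the smallest Euclidean distance between centred profiles.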

Additional observations from a re-analysis of the deposited data

How the results depend on the processing

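The alternatives were a pseudocount of 0.1, a mean of at least 1 or 5 FPKM, only genes of full status in every hairpin, centring on the median expressed gene, each hairpin left out in turn, and for clusters a fold of at least 2, coverage above the median, clusters wholly inside the locus and assignment by gene ID. With all 4 hairpins kept, no gene of the 73 was called by limma under any alternative run for it. None of the 73 had intervals apart under any setting run for intervals, against 0.251 to 7.55% of expressed genes. With only genes of full status the large minus small subunit median moved from 0.06 to 0.10, and with single hairpins left out it ran from -0.018 to 0.10. With Mrps18a and Mrps30 counted as large subunit, chosen after seeing the data, it was 0.07. The number of genes with both knockdown values outside the controls was 44 to 51 with single hairpins left out, which leaves 3 values to order in place of 4. Their share was 65.8% without shLuc and 60.3% without shGFP, against 54.7% and 53.4% of expressed genes, and 69.9% without shFox2-1 and 64.4% without shFox2-2, against 77.6% and 78.3%. Over all settings 38 of the 73 genes took both signs. Of the 20 with the largest differences 3 did, with ranges of -0.073 to 0.37 for Mrps18c, -0.19 to 0.51 for Mrpl27 and -0.0046 to 0.37 for Mrpl39, and the cause was not tested. Clusters were found in 25 to 31 genes. The share was 34.2% with coverage above the median, against 39.6% of expressed genes. It was 41.1% with a fold of at least 2, against 52.0%. No paired analysis was possible because the deposited columns pool the 2 libraries of a hairpin and carry no replicate. The sequence of the clusters was not searched for GCATG, since no genome of the build was used here. Depth limits were unknown without counts.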

Other observations

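Start sites of a pair of genes on opposite strands within 1000 bp, as given by RefSeq, were found for 25 of the 64 genes with a promoter (39.1%) and for 20.5% of expressed genes. Mrps11 and Mrpl46, a gene of each subunit, start 42 bp apart. Mrps11 stood at 10.3 FPKM in shLuc, 11.5 in shGFP, 11.3 in shFox2-1 and 8.20 in shFox2-2, and Mrpl46 at 11.4, 14.2, 13.3 and 10.2 FPKM in the same order. Both genes were lowest in shFox2-2 and highest in shGFP, and they differed by -0.16 and -0.12 in knockdown minus control on the log2(FPKM + 1) scale.

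Over the 18 such pairs with values for both genes, the differences had the same sign in 10 and opposite signs in 8. Mrps27 and Ptcd2 start 108 bp apart and differed by -0.10 each. Mrpl49 starts 192 bp from Fau, a gene of a cytosolic ribosomal protein, and they differed by 0.09 and -0.29. Mrpl18 starts 238 bp from Tcp1, a chaperonin subunit, and they differed by -0.04 and 0.26, while the mean levels were 26.5 and 260 FPKM. Mrps12 and Sars2, the mitochondrial seryl-tRNA synthetase, start 147 bp apart and differed by -0.34 and -0.11. Mrpl32 and Psma2, a proteasome subunit, start 205 bp apart and differed by -0.27 and -0.05.

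Of 5355 other genes with a mean of at least 10 FPKM, those closest to the mean profile of the 73 over the 4 hairpins were Jtv1, LOC382567, LOC622901, Yeats4 and Gabarap, at Euclidean distances of 0.012 to 0.021 on the log2(FPKM + 1) scale. The mean profile, centred on each gene, was -0.07 in shLuc, 0.10 in shGFP, 0.06 in shFox2-1 and -0.08 in shFox2-2. The 73 genes themselves lay at distances of 0.074 (Mrpl41) to 0.484 (Mrpl23) from this mean. None of them was thus as close to it as the genes just named.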
